A study of Mus musculus with 12 samples.

Results

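Titin and 6 further large scaffold genes of the sarcomere, Obsl1, Nebl, Myom1, Myom2, Xirp1 and Xirp2, were followed in embryonic mouse hearts with and without Ddx3x, an X-linked RNA helicase that acts in translation, in heart muscle cells. They were taken by symbol from a table of 21783 genes, which listed 6 of the 7, each with a read count in every pool; Xirp1 was not analysed here. Whole hearts of female embryos at embryonic day 10.5 were pooled, with 20 hearts in each of 3 pools of a genotype, and every pool gave an RNA library and a library of ribosome-protected footprints, the RNA fragments that ribosomes shield from nuclease. The WT pools were Ddx3x fl/fl, that is, homozygous for a floxed Ddx3x allele. The CM-KO pools were the cardiomyocyte knockout (Ddx3x CM-KO), for which embryos were genotyped for Tnnt2-Cre, a Cre recombinase driven by the cardiac troponin T promoter. The deletion is thus aimed at cardiomyocytes, while whole hearts also hold endocardial, epicardial and blood cells that keep Ddx3x. The question addressed here is whether the RNA of these genes, their footprints, or the footprints per RNA differed between the genotypes.

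The sarcomere is the contractile unit of striated muscle, in which actin and myosin filaments slide past each other between neighbouring Z-discs. Titin spans from the Z-disc to the M-band, acts as a molecular spring and anchors the myosin filament. Around it, myomesins and the Obsl1 protein cross-link the M-band, nebulette lines actin filaments at the Z-disc, and Xin repeat proteins bind actin at the intercalated disc and in developing myofibrils. In heart muscle these scaffolds are laid down as the first myofibrils form.

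The 6 genes differed widely in length, and titin stood alone. In the GENCODE annotation of GRCm39, the assembly also called mm39, Ttn lies at chr2:76534136-76812891 on the minus strand, and its canonical transcript has 347 exons and a coding sequence of 106170 bases for 35390 residues. The other coding sequences were 11352 bases for Xirp2, 5412 for Obsl1, 5001 for Myom1, 4389 for Myom2 and 2856 for Nebl, beside a median of 1395 over 16605 annotated genes. The 5′ leader of Ttn was 131 bases long with a GC content of 48.9%, against medians of 230 bases and 63.3%. The 27 bases around each start codon are shown because a ribosome must assemble there before it can give footprints; they run 5′ to 3′ along the coding strand, with the ATG in capitals.
Ttn, chr2:76810512-76810538, minus strand: gtgcctgaaaagATGactactcaagca
Obsl1, chr1:75482854-75482880, minus strand: gcagcggccgcaATGaaggccggatca
Nebl, chr2:17465335-17465361, minus strand: catagggtaaagATGaaggtacctgta
Myom1, chr17:71329858-71329884, plus strand: ggagggcccaggATGtctctgcccttt
Myom2, plus strand, joined across exons, start codon at chr8:15113854-15113856: ggaacactcaagATGtccctggtcgca
Xirp2, chr2:67307142-67307168, plus strand: ctgaaggagaggATGgcaaggtaccag
All 6 carried a purine 3 bases before the ATG, as did 86.8% of 16325 genes, so this feature was shared with most of the transcriptome. Ttn had 2 upstream ATG triplets in its leader, Myom1 had 1 and Myom2 had 11, while Obsl1, Nebl and Xirp2 had none; the median gene had 1. The 90 bases before the Ttn start codon had a predicted folding energy of -29.9 kcal/mol, close to the median of -28.4 over 13941 genes, and the 6 members ranged from -30.6 to -21.5 kcal/mol.

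The RNA libraries held between 14.7 and 19.9 M counts and the footprint libraries between 7.31 and 14.3 M. Levels are CPM, that is, counts divided by the TMM-scaled library size within an assay, given as mean ± SD over 3 pools, and genes past an adjusted p of 0.05 in the edgeR quasi-likelihood F-test over all genes are named as called. The targeted gene, Ddx3x, had RNA levels of 294, 304 and 311 CPM in the WT pools and 281, 216 and 221 CPM in the CM-KO pools (log2 fold change -0.34, SE 0.10, adjusted p = 0.0883), and its footprints stood at 633 ± 34.6 CPM in WT and 528 ± 33.7 CPM in CM-KO (log2 fold change -0.26, adjusted p = 0.35). Neither difference passed the test, while the CM-KO pools lay below the WT pools in both assays. Of all genes tested, 8.42% separated in this direction in RNA and 7.05% in footprints. Although all pools are labelled female, RNA of the Y-linked Uty was counted 174, 108 and 11 times in the 3 CM-KO pools, with a blank for each WT pool. Results are therefore also given without CM-KO pools 1 and 2, which leaves 1 CM-KO pool. Afp, a yolk sac and liver gene, ranged from 20.2 to 306 CPM among RNA pools, in no order of genotype. The 14 cardiomyocyte markers were all counted and summed to 17200 to 19200 CPM in WT RNA and 17900 to 19400 in CM-KO. In such bulk samples fewer cells of a type and less RNA per cell cannot be told apart.

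Titin gave more reads than nearly every other gene. Ttn took 0.589 to 0.637% of RNA counts in the WT pools and ranked between the 4th and the 6th gene in the library. In the CM-KO pools it took 0.764 to 0.809% and ranked 3rd in each. Among footprints its share was 0.480 to 0.631% in WT and 0.378 to 0.466% in CM-KO. Read counts grow with transcript length, so the members can be set against each other only per length.

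Per kilobase of coding sequence, WT RNA levels ran from Nebl at 207 ± 17.6 CPM per kb through Myom1 at 81.6 ± 2.28, Ttn at 57.6 ± 3.11 and Obsl1 at 38.5 ± 2.20 to Myom2 at 0.818 ± 0.395 and Xirp2 at 0.574 ± 0.201. Pools of neighbours in this order did not overlap except for Myom2 and Xirp2. The WT footprint levels had the same order, with Nebl at 169 ± 8.95, Myom1 at 74.9 ± 8.25, Ttn at 50.8 ± 8.44 and Obsl1 at 45.3 ± 1.77 CPM per kb, but there pools of Ttn and Obsl1 overlapped. Nebulette RNA was higher per coding kilobase than that of 96.3% of 14602 genes, titin's than that of 80.2%, and Xirp2's than that of 1.8%. The order depends on the length used: which part of the transcript was counted is not stated, and per kilobase of all annotated exon bases (19568 for Nebl and 117522 for Ttn) WT RNA was highest for Ttn (52.1 ± 2.81 CPM per kb), followed by Nebl (30.2 ± 2.57), Myom1 (25.4 ± 0.71) and Obsl1 (22.5 ± 1.28). Under either length Myom2 and Xirp2 were the lowest of the 6.

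**Figure D1:**
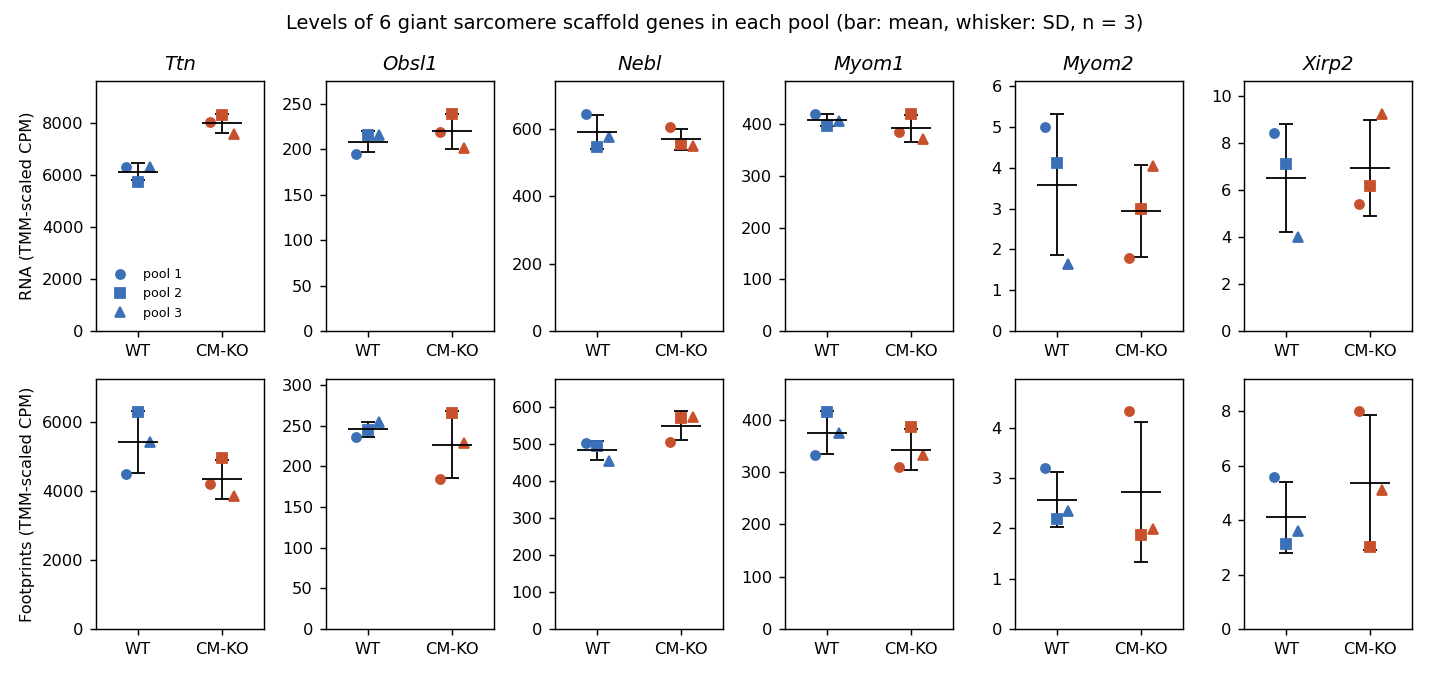
TMM-scaled CPM of each gene in each pool, RNA above and footprints below, WT in blue and CM-KO in red, with the mean as a bar and the SD as whiskers (n = 3); each panel has its own axis from 0. Ttn RNA is the one panel of the upper row in which every CM-KO pool, from 7580 to 8320 CPM, lies above every WT pool, from 5740 to 6310.

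Titin RNA was higher in CM-KO hearts, while its footprints did not pass the test. RNA levels of Ttn were 6310, 5740 and 6310 CPM in pools 1, 2 and 3 of WT, against 8060, 8320 and 7580 CPM in those of CM-KO. Every CM-KO pool lay above every WT pool, and Ttn rose from 6120 ± 330 to 7990 ± 375 CPM (1.30-fold, log2 fold change 0.38, SE 0.09, 95% interval 0.19 to 0.58, adjusted p = 0.0364). Ttn was the single member called in RNA, 1 of 6, where 4.37% of the 17147 genes tested were called, 3.57% higher and 0.805% lower (612 of 750 calls were higher, and 478 of 751 with upper quartile scaling), and RNA pools separated by genotype in the higher direction in 13.3% of genes. The Ttn call was lost without WT pool 2 (log2 fold change 0.33, adjusted p = 0.289), without CM-KO pool 1 (0.37, adjusted p = 0.11), 2 (0.35, adjusted p = 0.166) or 3 (0.42, adjusted p = 0.0639), and without CM-KO pools 1 and 2 together (0.31, adjusted p = 0.477). With the Afp level of each pool as a covariate it was 0.35 (adjusted p = 0.133), with all 12 libraries in one fit 0.38 (adjusted p = 0.477), and with the replicate number as a block 0.38 (adjusted p = 0.187); none of these 3 called the gene. The direction was the same in each of the 14 alternatives run, whose log2 fold changes ranged from 0.31 to 0.42, and 6 of them called the gene. The authors' deposited table lists 0.37 as the log2 fold change of Ttn RNA (adjusted p = 1.39e-06), short of the fold that the submitters' design text required for a differentially expressed gene.

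Ttn footprints stood at 4490, 6280 and 5420 CPM in WT pools 1 to 3 and at 4190, 4960 and 3850 CPM in CM-KO. CM-KO pool 2 lay above WT pool 1, so the genotypes overlapped. The means were 5400 ± 896 and 4330 ± 565 CPM (log2 fold change -0.32, SE 0.14, 95% interval -0.63 to 0, adjusted p = 0.566), and no member was called in footprints, where 0.23% of 15249 genes were. In edgeR 1351 genes had an unadjusted p under 0.05 in footprints, none of them a member; DESeq2 called none of the 6 members in footprints either. None of the 14 alternatives called Ttn, with log2 fold changes from -0.48 to -0.19. Footprints of 13 erythroid markers summed to 43000 to 57200 CPM in WT and 69400 to 89000 in CM-KO, without overlap, and none of the 13 was called. In RNA the same markers summed to 8790 to 14000 CPM in WT and 12800 to 16000 in CM-KO, with 5 of 13 called higher, as were 3.57% of all genes. The part of this difference in blood cell markers in the titin values was not tested.

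Set against the summed cardiomyocyte markers of the same library, titin RNA was 32.9%, 33.4% and 36.3% of that sum in WT pools 1 to 3 and 43.8%, 42.9% and 42.3% in CM-KO. The CM-KO pools again all lay above the WT pools (1.26-fold, two-sided exact permutation p = 0.1, the smallest that 3 against 3 allows). Titin footprints were 11.9%, 17.3% and 15.3% of the marker footprints in WT and 12.5%, 12% and 9.95% in CM-KO, which overlapped (two-sided exact permutation p = 0.3). Among the other members, Myom1 RNA and Nebl footprints also separated the genotypes on this scale. The share of all genes that do so was not computed.

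Footprints per RNA, here called ribosome occupancy, relate the 2 assays. The log2 ratio of footprints to RNA was -0.05, 0.57 and 0.08 in WT pools 1 to 3 and -0.60, -0.36 and -0.50 in CM-KO. Every CM-KO pool lay below every WT pool, a separation in this direction shown by 8.25% of 15231 genes. The mean ratio went from 0.20 ± 0.32 to -0.49 ± 0.12 (n = 3), while the median over all genes was -0.07 in WT and -0.17 in CM-KO. In the edgeR interaction test over 12 libraries the log2 difference for Ttn was -0.69 (SE 0.18, 95% interval -1.07 to -0.31), with an unadjusted p of 0.00121, the 172nd smallest of 15231, and an adjusted p of 0.107, so it was not called; 0.84% of genes were, 0.834% in the lower direction. No member was called in occupancy in this fit or by DESeq2 (Ttn adjusted p = 0.202), and 946 genes, Ttn among them, had an unadjusted p under 0.05. The RNA and the footprint library of a pool come from the same hearts, and with the pool as a block the difference was -0.69 with an adjusted p of 0.0226, which calls the gene; upper quartile scaling called it as well (-0.66, adjusted p = 0.0451). Of these fits, only the block used that the 2 libraries of a pool share hearts. The main fit and the other alternatives treated all 12 libraries as independent, so the number of fits that call Ttn is no measure of its strength. The other 11 of 13 alternatives did not call it, and over all 13 the difference ranged from -0.78 to -0.50. It was -0.50 (adjusted p = 1) without WT pool 2, the WT pool with the highest ratio. Without CM-KO pools 1 and 2, which left 1 CM-KO pool, it was -0.75. The authors' deposited table gives occupancy ratios for Ttn of 0.75, 1.07 and 0.84 in WT, against 0.55, 0.58 and 0.50 in CM-KO, with a log2 fold change of -0.69 and an adjusted p of 0.00264, again short of the fold that the submitters' design text required.

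**Figure D2:**
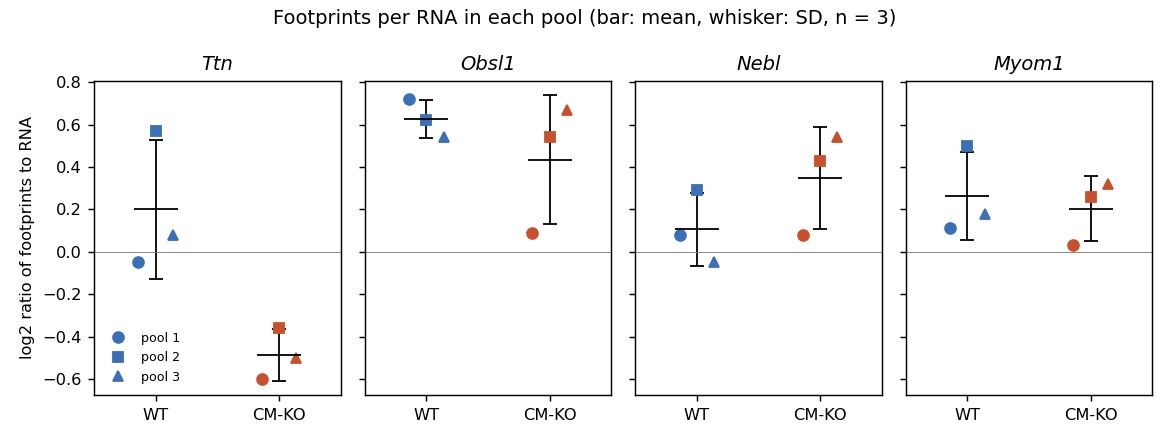
Log2 ratio of footprints to RNA in each pool for the 4 genes with over 1000 counts in every library, WT in blue and CM-KO in red, with the mean as a bar and the SD as whiskers (n = 3). The CM-KO pools of Ttn, from -0.60 to -0.36, lie below its WT pools, from -0.05 to 0.57, whereas the genotypes overlap for Obsl1, Nebl and Myom1.

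The M-band genes showed no called change. Myom1, whose product myomesin bridges neighbouring myosin filaments and binds titin, stood at 420, 397 and 407 CPM in WT RNA and 386, 421 and 371 CPM in CM-KO. Its footprints were 333, 415 and 375 CPM in WT and 310, 385 and 333 CPM in CM-KO. Genotypes overlapped in both assays, with log2 fold changes of -0.06 for RNA (SE 0.07, 95% interval -0.22 to 0.10, adjusted p = 0.848), -0.13 for footprints (SE 0.11, 95% interval -0.37 to 0.11, adjusted p = 0.833) and -0.06 for occupancy (95% interval -0.38 to 0.25, adjusted p = 0.999). The intervals of Myom1 RNA and Ttn RNA do not overlap, although the difference between the 2 genes in RNA was not tested.

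Obsl1 encodes obscurin-like 1, which links titin to myomesin at the M-band and is also made outside muscle. It stood at 195, 215 and 215 CPM in WT RNA and 219, 239 and 201 CPM in CM-KO, and at 236, 245 and 255 CPM in WT footprints and 184, 266 and 229 CPM in CM-KO. The genotypes overlapped in both, and CM-KO footprint pool 1 was the lowest of the 6. Log2 fold changes were 0.07 for RNA (95% interval -0.10 to 0.25, adjusted p = 0.795), -0.11 for footprints (95% interval -0.39 to 0.16, adjusted p = 0.881) and -0.18 for occupancy (95% interval -0.54 to 0.17, adjusted p = 0.999). In WT its mean log2 ratio of footprints to RNA, 0.63 ± 0.09, was above that of 77.3% of genes and the highest of the 6 members. Such a ranking between genes may depend on which part of the transcript was counted, which is not stated.

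Myom2 encodes M-protein, a myomesin typical of fast skeletal muscle and of the more mature heart. It was barely expressed: RNA levels were 5, 4.12 and 1.65 CPM in WT and 1.78, 2.99 and 4.04 CPM in CM-KO, from 28 to 76 counts. Footprint counts were 16 to 34 per library. The genotypes overlapped, and the intervals were wide, from -1.20 to 0.66 around -0.27 for RNA, -0.85 to 0.92 around 0.04 for footprints and -0.90 to 1.52 around 0.31 for occupancy (adjusted p = 0.883, 0.991 and 0.999), so smaller changes than these bounds could not be seen given the spread between pools and the counts.

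At the Z-disc, Nebl encodes nebulette, the cardiac relative of nebulin that binds actin, and its RNA did not separate the genotypes. It stood at 646, 548 and 578 CPM in WT RNA and 606, 555 and 549 CPM in CM-KO (log2 fold change -0.05, SE 0.08, 95% interval -0.23 to 0.13, adjusted p = 0.893). Its footprints were 502, 494 and 454 CPM in WT and 505, 571 and 572 CPM in CM-KO. Here every CM-KO pool was above every WT pool, CM-KO pool 1 only narrowly, which 7.74% of genes showed in this direction; the log2 fold change was 0.18 (SE 0.08, 95% interval 0 to 0.37, adjusted p = 0.567) and was not called. The log2 ratio of footprints to RNA was 0.08, 0.29 and -0.05 in WT, against 0.08, 0.43 and 0.54 in CM-KO, which overlapped (occupancy difference 0.24, 95% interval -0.06 to 0.55, adjusted p = 0.999). Relative to the marker sum, Nebl footprints were 1.28 to 1.36% in WT and 1.38 to 1.5% in CM-KO (two-sided exact permutation p = 0.1, the smallest possible). How many of all genes separate on this scale was not computed.

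Xirp2 encodes a Xin repeat protein of actin filaments at cell junctions and Z-discs. RNA levels were 8.44, 7.1 and 4 CPM in WT and 5.40, 6.17 and 9.25 CPM in CM-KO, from 80 to 158 counts, and footprint levels were 5.59, 3.13 and 3.60 CPM in WT and 8, 3.03 and 5.12 CPM in CM-KO, from 23 to 72 counts. The genotypes overlapped in both, and the log2 fold changes were 0.10 for RNA (95% interval -0.54 to 0.74, adjusted p = 0.951), 0.36 for footprints (-0.46 to 1.18, adjusted p = 0.87) and 0.26 for occupancy (-0.75 to 1.27, adjusted p = 0.999).

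The low genes shared their high and low pools in RNA. Myom2 and Xirp2 RNA were both highest in pool 1 and lowest in pool 3 of WT, and both highest in pool 3 and lowest in pool 1 of CM-KO. Neb, the skeletal muscle nebulin gene, had the same order at 12, 9.92 and 6.20 CPM in WT and 6.23, 10.6 and 11.4 CPM in CM-KO. The summed RNA of skeletal muscle progenitor markers was in the same order, at 23.6, 21.9 and 14.7 CPM in WT and 17.7, 19.4 and 23.1 CPM in CM-KO, of which 5 of 10 had values in every pool while Myf5, Myod1, Myog, Myf6 and Mymk were blank in at least 1 pool, each blank standing for 10 counts or fewer per assay. Of the 5 counted, Pax3 and Pax7 followed this order, whereas Actn3, which gave the most counts, ran from 12.6 through 11.1 to 10.4 CPM in CM-KO, and Myh3 and Chrna1 were highest in WT pool 2. The summed RNA of 11 liver, gut and yolk sac markers had another order, at 124, 430 and 490 CPM in WT and 165, 69.3 and 380 CPM in CM-KO, although 1 of them, Cubn, followed that of Myom2 and Xirp2. In CM-KO footprints pool 1 was instead the highest, at 4.32, 1.86 and 1.99 CPM for Myom2 and 8, 3.03 and 5.12 CPM for Xirp2. Neb footprints there were 9.52, 4.59 and 5.76 CPM. In WT footprints pool 1 was the highest for each of these genes, as in RNA. This order of pools was picked out after the values were seen, and how many of all genes, or of genes with few counts, show it was not computed. The part of skeletal progenitors or of other tissue in the Myom2 and Xirp2 values was not tested.

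**Figure D3:**
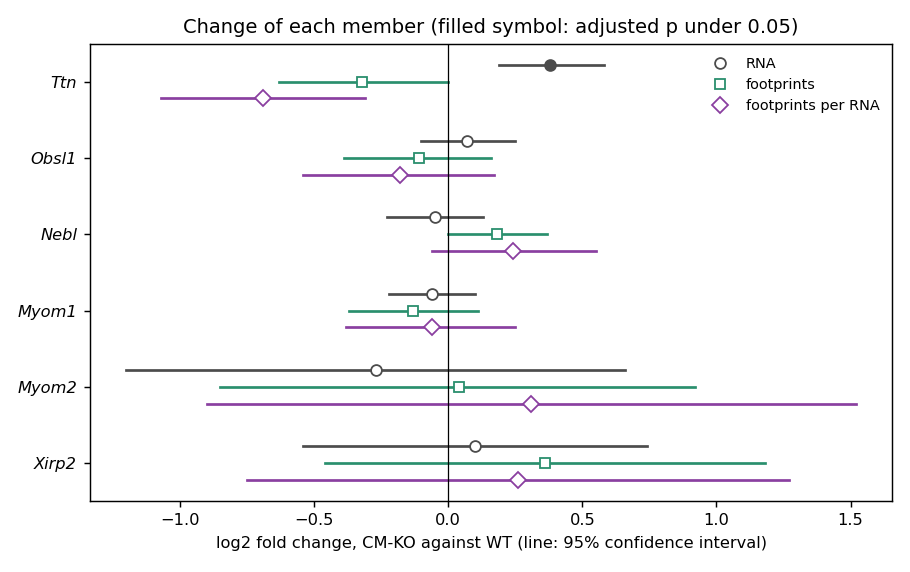
Log2 fold change of CM-KO against WT for RNA, footprints and footprints per RNA of each gene, with 95% confidence intervals as lines and a filled symbol for an adjusted p under 0.05. Ttn is the one gene whose RNA interval (0.19 to 0.58) and occupancy interval (-1.07 to -0.31) both leave out 0, on opposite sides, and the intervals of Myom2 and Xirp2 are the widest.

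Whether the occupancy difference of titin stood apart from that of its partners was tested for each of the 5 other members as the difference between the log2 ratios within a pool. Against Nebl, Ttn lay at -0.13, 0.28 and 0.13 in WT and at -0.68, -0.79 and -1.03 in CM-KO, a shift of -0.93. Against Myom1 it lay at -0.16, 0.06 and -0.10 in WT and at -0.63, -0.62 and -0.82 in CM-KO, a shift of -0.62. In both pairs the genotypes did not overlap (two-sided exact permutation p = 0.1, the smallest possible, and 0.25 after Benjamini-Hochberg adjustment over 5 pairs). Against Obsl1 the shift was -0.49 (exact permutation p = 0.2, adjusted 0.333), and against Myom2 and Xirp2 it was -0.90 in each (exact permutation p = 0.4, adjusted 0.4), with overlapping pools. This exact test cannot give a p under 0.1 with 3 pools a genotype, so it could pass no pair at 0.05. All 5 pairs use the same Ttn ratios, which separated the genotypes by themselves, so the pairs are not independent. The share of all genes whose difference from Ttn separates the genotypes was not computed.

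Median log2 occupancy differences fell with coding length, from 0.04 over genes under 1000 bases through 0 (1000 to 2000 bases), -0.03 (2000 to 4000) and -0.05 (4000 to 10000) to -0.08 over the 110 genes of 10 kb or more. Whether these medians differ was not tested. Among those 110, Ryr2, the ryanodine receptor that releases calcium for contraction, with a coding sequence of 14898 bases, had the lowest difference (-1.07, SE 0.15, adjusted p = 0.00116) and Ttn the second lowest, a comparison chosen after their values were seen. Ryr2 shared the directions of titin, though not its calls. Its RNA stood at a mean of 1490 ± 68.5 CPM in WT and 1870 ± 134 in CM-KO (adjusted p = 0.0562, not called). Its footprints were called lower (log2 fold change -0.76, adjusted p = 0.0207), unlike those of Ttn. Ryr2 was the single called gene of the 110, a share of 0.909%, beside 0.956%, 1.12%, 0.713% and 0.281% called lower in the 4 shorter classes, in the same order. The next longest members stood at 0.26 for Xirp2 and -0.18 for Obsl1 (adjusted p = 0.999 for each).

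**Figure D4:**
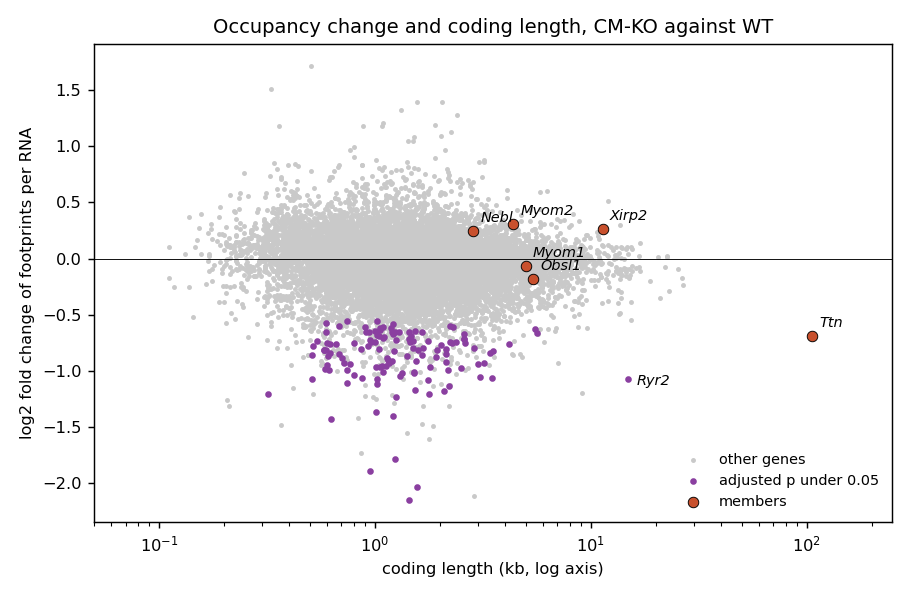
Log2 occupancy difference of CM-KO against WT (vertical) against coding length in kb on a log axis, 1 point per gene, with genes called lower in purple and the 6 scaffold genes in red. Ttn, at 106.17 kb and -0.69, lies far to the right of every other gene, and the other 5 members lie between -0.18 and 0.31.

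The 3 genes most like Ttn over the 12 libraries, by Pearson correlation of log2 CPM centred within each assay among 8969 genes with at least 10 CPM in both, were Nab1 (0.951), a corepressor of early growth response factors, Zfyve9 (0.932), a SMAD anchor also called SARA, and Map3k7 (0.924), the kinase TAK1. These are descriptions, since all genes share the libraries, their depth and the genotype difference. The genotype difference was kept in the correlation, so directions like those of Ttn were built into the choice of these 3 genes. Each had higher RNA and lower footprints in CM-KO by point estimate, with RNA log2 fold changes of 0.41, 0.49 and 0.28 and occupancy differences of -0.74 (adjusted p = 0.0168), -0.76 (adjusted p = 0.0103) and -0.45 (adjusted p = 0.313). Of the 127 genes called lower in occupancy, 111 were also called higher in RNA, 2 measures that share the RNA libraries.

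Genes whose products bind or regulate titin changed in both directions in RNA. Of 24 listed, 20 were tested, 2 were called higher in RNA and 2 lower, where 3.57% of all genes were called higher and 0.805% lower, and none was called in footprints; their median log2 fold changes were -0.05 in RNA, -0.12 in footprints and -0.03 in occupancy, beside 0.01, -0.01 and -0.01 over all genes. Tcap, the telethonin that caps titin at the Z-disc, rose from 9.32, 9.98 and 10.1 CPM in WT to 13.9, 20.2 and 13.3 CPM in CM-KO (log2 fold change 0.69, adjusted p = 0.0344). Smyd2, a methyltransferase that acts at the titin N2A region, rose from 110 ± 3.81 to 144 ± 14.4 CPM (0.39, adjusted p = 0.0222) and was the one listed gene called lower in occupancy (-0.65, adjusted p = 0.032). The members that fell were Cryab, the small heat shock protein that binds the titin spring, from 190 ± 6.42 to 123 ± 18.6 CPM (-0.63, adjusted p = 0.00567), and Trim63, the M-band ubiquitin ligase MuRF1, from 33.3 ± 2.37 to 23.9 ± 1.85 CPM (-0.48, adjusted p = 0.0121). For each of these 4 the RNA pools of WT and CM-KO lay apart, as they did for 13.3% of all genes in the higher and 8.42% in the lower direction. Cryab was called in all 14 alternatives, Trim63 in 10, Smyd2 RNA in 8 and Tcap in 6, each with its direction unchanged. Without CM-KO pools 1 and 2, which left 1 CM-KO pool, their RNA log2 fold changes were -0.67, -0.61, 0.32 and 0.44, in the same order. Smyd2 occupancy was called in 3 of 13. DESeq2 called 2 of the list higher in footprints and none lower, where it called 100 of 15249 genes higher. Rbm20, the splicing factor that selects titin isoforms, had an RNA log2 fold change of -0.08 (adjusted p = 0.821); isoforms of titin cannot be told apart in counts per gene.

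Among 23 partners of nebulette and the Xin proteins, 3 were called higher in RNA (3.57% of all genes were), none lower, and none in footprints or occupancy, with medians of 0.09, 0.03 and 0. Des, the intermediate filament desmin that nebulette binds, stood at 555, 536 and 492 CPM in WT and 610, 818 and 732 CPM in CM-KO (0.45, adjusted p = 0.0377). Its log2 ratio of footprints to RNA was 0.68 in each WT pool and 0.14 to 0.18 in CM-KO (occupancy difference -0.52, adjusted p = 0.157). The actin regulators Zyx and Vasp rose by 0.43 (adjusted p = 0.0134) and 0.38 (adjusted p = 0.0181) on the log2 scale. Of 16 contractile filament genes, those of the myosin and actin filaments that the scaffolds hold, 1 was called in RNA and none in footprints or occupancy. Their medians were -0.07, -0.02 and 0.10, beside 0.01, -0.01 and -0.01 over all genes. DESeq2, upper quartile scaling and the replicate block each called 1 lower in footprints, where they called 184, 60 and 203 of 15249 genes in either direction. The gene called in RNA, in the lower direction like 0.805% of all genes, was Myl2, the ventricular regulatory light chain. It fell from 1030 ± 86.5 to 726 ± 78.4 CPM (-0.51, adjusted p = 0.0154) and was called in 10 of 14 alternatives. Zyx, Vasp and Des were called in 7, 6 and 5 of 14. Without CM-KO pools 1 and 2, which left 1 CM-KO pool, the RNA log2 fold changes were 0.44 for Zyx, 0.39 for Vasp, 0.47 for Des and -0.69 for Myl2.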

How the data were processed

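Per the labels' protocols, a service provider's pipeline aligned the reads to mm39 and counted them. The aligner, strand setting, annotation release and counted part of the transcript are not given in the sources used. The authors deposited raw read counts per gene, with no normalization. They also deposited RPM values, occupancy (a ratio of footprint over RNA coverage) and log2 fold changes with adjusted p-values (DESeq2 for RNA, per the labels, and for footprints, per the file headers); RPM was not analysed, and the rest was used only where the authors' deposited table is named. Genes with a blank cell (4618) were left out, and 17165 were kept.

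RNA and footprints were each tested 3 against 3 with the edgeR 4.0.16 quasi-likelihood F-test (R 4.3.3, robust, TMM, filterByExpr with minimum count 10 and total 15, Benjamini-Hochberg), and occupancy as the genotype by assay interaction over 12 libraries. Ratios per pool had a prior count of 1 and TMM scaling over 12 libraries. Fits were tested on simulated counts, drawn independently for each library and with the same spread between replicates for all genes. The simulation thus left out that the RNA and footprint libraries of a pool share hearts. A gene not called may still have changed. Pools are separate sets of hearts. Same-numbered WT and CM-KO pools were not paired by any label, and correlations of their deviations ran from -0.41 to 0.18 in RNA and from 0.09 to 0.42 in footprints; RNA and footprint libraries of a pool share hearts (-0.04 to 0.63). Alternatives covered scaling, filter, DESeq2 1.42.0, joint fit, block, each pool left out and Afp as a covariate. In another, CM-KO pools 1 and 2, which held the most Y-linked reads, were left out, and 1 CM-KO pool remained. The application of the alternatives to the gene lists was chosen after seeing the data. Lengths and sequences came from GENCODE M39 on GRCm39 (21594 genes matched), folding from ViennaRNA 2.7.2. All 6 genes overlap antisense genes, whose reads cannot be told apart if counting ignored strand. Xirp2 also overlaps a snoRNA gene on its own strand, Gm23328, and the part of its reads in the Xirp2 counts was not tested. Reads were not stated to carry molecular identifiers, so counting error may be understated.

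Members and gene lists were chosen with earlier results of these data known. Named were all members, Ddx3x, list genes with an adjusted p under 0.05 (at most 6 of a list) and the 3 genes most correlated with Ttn; other names were chosen after their values were seen.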

Additional observations from a re-analysis of the deposited data

How the results depend on the processing

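Ttn kept its direction in RNA, footprints and occupancy under each alternative run. Beside 750 genes called in RNA, 250 were called with all 12 libraries in one fit, 367 with the replicate number as a block, 126 without CM-KO pools 1 and 2 and 296 with Afp as a covariate, and 0 members were called in each of these 4; leaving out 1 pool gave 207 to 783 genes and 0 to 1 members. Beside 35 in footprints, the counts were 60 with upper quartile scaling, 184 with DESeq2, 80 with all 12 libraries, 203 with the block, 54 without CM-KO pools 1 and 2, 5 with Afp, and 1 to 94 with 1 pool left out. Beside 128 in occupancy, the counts were 41 with RLE scaling, 248 with upper quartile scaling, 29 with no filter, 226 with the pool as a block and 39 with Afp. They were 9 to 113 with 1 pool left out. Fewer genes than in the main fit were also called in occupancy without CM-KO pools 1 and 2, which left 1 CM-KO pool. In occupancy 1 member, Ttn, was called with upper quartile scaling and with the block. No label ties a WT pool to a CM-KO pool; deviations of same-numbered pools correlated at -0.15, 0.18 and -0.41 in RNA and at 0.42, 0.22 and 0.09 in footprints, where the last is short of the 0.1 set for pairing. Nebl, Obsl1, Myom1, Myom2 and Xirp2, none of them called under any alternative, changed sign in some. With 1 pool left out, log2 fold changes in RNA ran from -0.114 to 0.018 for Nebl, -0.61 to 0.034 for Myom2 and -0.16 to 0.33 for Xirp2. In footprints they ran from -0.245 to 0.016 for Obsl1, -0.42 to 0.24 for Myom2 and -0.003 to 0.65 for Xirp2. In occupancy they ran from -0.246 to 0.031 for Obsl1, -0.112 to 0.074 for Myom1, -0.31 to 0.85 for Myom2 and -0.17 to 0.59 for Xirp2. Without CM-KO pools 1 and 2, which left 1 CM-KO pool, they were -0.053 for Obsl1 and 0.18 for Myom2 in RNA and -0.37 for Myom2 in footprints. For occupancy they were then 0.003 for Obsl1, 0.01 for Myom1, -0.50 for Myom2 and -0.15 for Xirp2. The cause was not tested. Ratios per pool hardly moved with a prior count of 5. Myom2 and Xirp2 had at most 158 counts in a library and varied widely between pools.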
